A study of Homo sapiens with 6 samples.

Results

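The genes described here are the nuclear-encoded subunits of the oxidative phosphorylation complexes, read in RNA-seq of Hs578T, a triple-negative breast cancer line. They were chosen by symbol alone (NDUF, SDH, UQCR, COX4 to COX8 and ATP5 subunit names), after dropping 39 symbols that end in P plus a number, which marks pseudogenes. The rule found 83 of the 46427 genes in the count table, and 77 of them had enough reads to be tested. The study's labels give 3 shCTRL samples, from cells transduced with the control vector pSUPER-CTRL, and 3 shCCN3 samples, from cells transduced with a short hairpin RNA against CCN3, a secreted matricellular protein also called NOV. All 6 samples came from stable lines made by retroviral transduction with the pSUPER vector and grown in serum, and the series describes the 3 samples of a group as independent biological replicates. Each group therefore stands for a single hairpin line, and an effect of the hairpin, of the line and of the knockdown cannot be told apart.

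Oxidative phosphorylation takes place in the inner mitochondrial membrane. Complex I (NADH dehydrogenase) and complex II (succinate dehydrogenase) pass electrons to coenzyme Q, complex III passes them to cytochrome c, and complex IV (cytochrome c oxidase) passes them to oxygen, while complex V (ATP synthase) uses the proton gradient to make ATP. Most subunits are encoded in the nucleus and imported, and the rest are encoded by mitochondrial DNA, so that every complex except complex II is built from the products of both genomes. The nuclear genes sit on nearly every chromosome and are mostly short.

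The libraries held between 56159110 and 68393177 counts. Levels are given as CPM, counts scaled to a common library size, after adjustment by the trimmed mean of M-values (TMM), whose factors lay between 0.983 and 1.02. They are shares of a library's mRNA, so fewer cells with a transcript and less of it per cell cannot be told apart. CCN3 stood at 103, 102 and 98.1 CPM in shCTRL and 47.4, 47.2 and 46.5 CPM in shCCN3 (log2 fold change -1.10, SE 0.055, adjusted p = 1.34e-06), and the groups did not overlap. The mesenchymal markers VIM, ZEB1, CD44, FN1 and AXL were read in all 6 libraries, and PTPRC, the leukocyte marker, was at most 0.18 CPM in the mean of either group. PECAM1, the endothelial marker, was also looked at. The log2 fold changes of PTPRC and PECAM1 ran from -0.058 to 1.43 and neither was called. In 1 of these 2 genes the shCCN3 values lay above all shCTRL values. The receptor and luminal genes looked at were ESR1, PGR, ERBB2, GATA3, FOXA1, EPCAM and CDH1. Of these 7, EPCAM, CDH1 and ESR1 were at or near 0. Among the 7, 4 had enough reads to be tested, with log2 fold changes from -0.66 to 0.41, and none was called. CD44 was the only one of these to pass the test (-0.25), and the part of cell state in the results was not tested.

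The library labelled shCCN3 replicate 2 stood apart in the genes described here. Its ratio to the mean of the other 2 shCCN3 libraries had a median of 0.34 on the log2 scale over the 77 members, and 76 of the 77 were above 0, against a median of -0.0087 over all genes tested. The same ratio moved with transcript length: its median was 0.18 in the 4981 shortest genes and -0.17 in the 4977 longest, of 14932 with a known length. The library labelled shCTRL replicate 3 departed from its group the same way but less, with a members' median of 0.14 and 73 of 77 above 0. Of the 77 tested members, 61 were among those shortest genes, with transcripts of 305 to 2130 bases. Counts and medians over the members are therefore given with and without shCCN3 replicate 2, and with an offset for transcript length, an alternative added after the values were seen. Single members are described from the fit of all 6 samples unless another fit is named. What set shCCN3 replicate 2 and shCTRL replicate 3 apart was not tested.

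**Figure D1:**
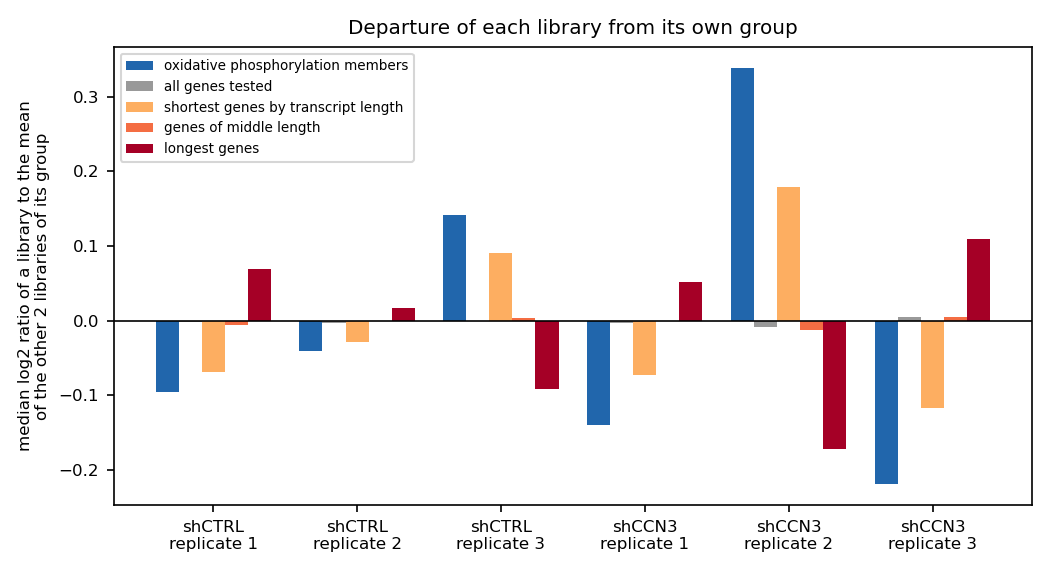
Median log2 ratio of each library to the mean of the other 2 libraries of its group (vertical axis), for the oxidative phosphorylation members, all genes tested and genes grouped by transcript length (bars). The members of shCCN3 replicate 2 sit 0.34 above their group and those of shCTRL replicate 3 sit 0.14 above theirs, on the same side as the 4981 shortest genes.

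In the shCCN3 cells 18 of the 77 tested members were lower, 1 was higher and 58 did not pass the test (adjusted p under 0.05 in the quasi-likelihood test of edgeR, Benjamini-Hochberg corrected for all 17419 genes tested). That is 24.7% of the members, where 33.4% of all genes tested passed, so the share called in either direction was below the background. By direction the background was 17.3% lower and 16.2% higher. The 18 of 77 members called lower lay above their background share, and the 1 called higher lay below its own. The median log2 fold change of the members was -0.16, with 62 of 77 below 0, beside a median of 0.0076 over all genes tested. The changes were small: COX7A1 was the only member called at 1.5-fold or more, a size that 15.7% of all genes tested reached. In 24 of 77 members the 3 shCCN3 values did not overlap the 3 shCTRL values, against 46.3% of all genes tested. For such a member the exact two-sided permutation test gives p = 0.1, the smallest that 3 samples against 3 allow.

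These counts depended on the library that stands apart. Without shCCN3 replicate 2, 54 members were called lower and 1 higher, with a median of -0.28, where 20.5% of all genes tested were called lower and 20% higher. Of these calls, 36 were of members not called with all libraries. Among them, all lower, were NDUFV1, NDUFS7, ATP5F1A, ATP5F1B, COX6A1, COX6B1, COX7A2, COX8A, ATP5MC2 and ATP5MC3. Without shCTRL replicate 3 the count called lower was 8, without shCTRL replicate 2 or either other shCCN3 library it was 9, and without shCTRL replicate 1 it was 14. Calls over all genes also fell in these fits, from 5825 to between 4181 and 4824. With the offset for transcript length 29 members were called lower and 7 higher, with a median of -0.11, where 20.3% and 19.7% of all genes tested were called. The 7 called higher there were COX4I1, NDUFB9, NDUFS4, ATP5PO, COX6C, ATP5PF and NDUFB4, at 0.60, 0.20, 0.20, 0.19, 0.18, 0.15 and 0.14 on the log2 scale. A set of 9 members was called in the same direction in every fit tried, those with a library left out included: ATP5MF, NDUFA3, NDUFA4, NDUFA5, NDUFS5, NDUFV2, SDHB and UQCRH were lower and COX4I1 was higher. None of the 9 reached 1.5-fold with all 6 samples. In other fits some did. Without shCCN3 replicate 2, NDUFS5, NDUFA4, ATP5MF and UQCRH stood at -0.71, -0.69, -0.67 and -0.67. COX4I1 did so with the length offset, at 0.60.

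**Figure D2:**
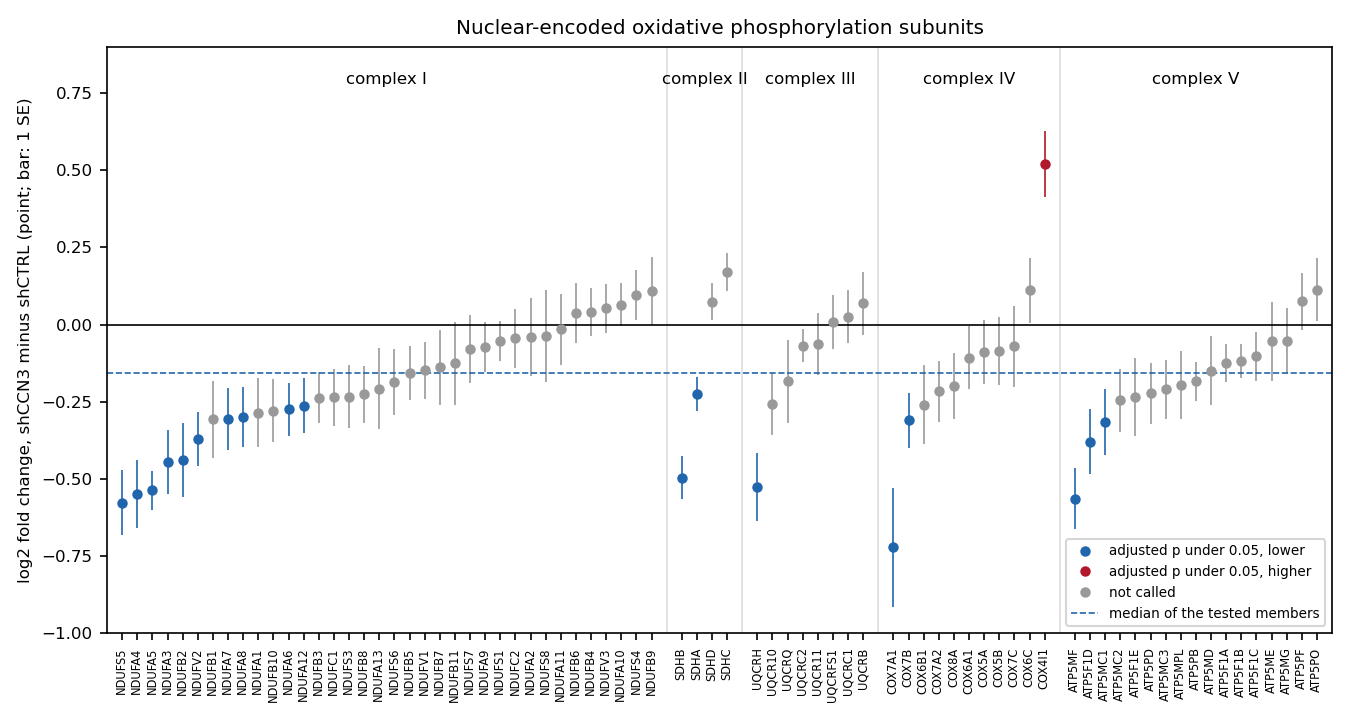
Log2 fold change of shCCN3 over shCTRL (points, with bars of 1 SE) for 76 of the 77 tested members, ordered within each complex, with blue and red for members called lower and higher and a dashed line at the median of all 77, -0.16. Each complex held members on both sides of 0, and COX4I1 alone was called higher.

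Complex I held 37 tested members, of which 10 were called lower and none higher (27.0%, median -0.18). The nuclear-encoded part of its core holds the flavin, the iron-sulfur clusters and part of the quinone site. The core subunits encoded by mitochondrial DNA are not among the members. Of the 7 core members 1 was called, and all 7 had negative log2 fold changes, from -0.37 to -0.037. NDUFV2, which holds an iron-sulfur cluster in the NADH-oxidising arm, stood at 120.3, 123 and 134 CPM in shCTRL and 93.7, 109.9 and 88.6 CPM in shCCN3. The groups did not overlap, and NDUFV2 was called lower at -0.37 ± 0.087 (SE; adjusted p = 0.00947). Its copy NDUFV2P1, with 2.33% as many counts, was also called lower (-0.48). NDUFV1, its partner that binds the flavin and NADH, stood at 158, 163 and 181 CPM in shCTRL and 141, 172 and 141 CPM in shCCN3. The groups overlapped through shCCN3 replicate 2, and the difference of -0.15 ± 0.092 (SE; adjusted p = 0.258) did not pass the test.

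NDUFS1, the largest core subunit, stood at 129.8, 132 and 122 CPM in shCTRL and 124, 115 and 130.2 CPM in shCCN3, with overlapping groups and a log2 fold change of -0.053 ± 0.066 (SE; adjusted p = 0.585). It was the core member with the highest shCCN3 value in replicate 3 rather than in replicate 2. NDUFS7, which carries an iron-sulfur cluster, stood at 83.4, 89.4 and 97.8 CPM in shCTRL and 79.7, 101 and 75.5 CPM in shCCN3 (log2 fold change -0.08, SE 0.11, adjusted p = 0.624). NDUFS8, the ferredoxin-like subunit, stood at 129.6, 131 and 165 CPM in shCTRL and 126, 173 and 116 CPM in shCCN3 (log2 fold change -0.037, SE 0.15, adjusted p = 0.879). In NDUFS7 and NDUFS8 the groups overlapped, and shCCN3 replicate 2 was the highest of its group in each. Neither passed the test with all libraries, and the log2 fold changes without shCCN3 replicate 2 were -0.21 and -0.23.

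The accessory subunits, which surround the core and take part in assembly and stability, held the largest differences in complex I. Of 30 tested, 9 were called lower and none higher (30.0%, median -0.22). Of all genes tested 33.4% were called in either direction and 17.3% were called lower. Whether accessory and core subunits differed was not tested. NDUFS5 (Gene ID 4725, chr1:39026350-39034615), which lies on the intermembrane-space side, stood at 127, 129 and 142 CPM in shCTRL and 82.7, 105 and 78.9 CPM in shCCN3. All 3 shCCN3 values lay below all 3 shCTRL values, and NDUFS5 was lower, with a log2 fold change of -0.58 ± 0.11 (SE; adjusted p = 0.00262). NDUFA4 (Gene ID 4697, chr7:10931943-10940153) stood at 104, 103 and 115 CPM in shCTRL and 66.6, 87.6 and 66.04 CPM in shCCN3, again without overlap (log2 fold change -0.55, SE 0.11, adjusted p = 0.00419). The gene table lists NDUFA4 as COXFA4, since the protein is now placed in complex IV, and it is counted with complex I here only by its symbol. NDUFA5 (Gene ID 4698, chr7:123536997-123601651), a subunit of the matrix arm, stood at 51.5, 48.7 and 50.9 CPM in shCTRL and 33.1, 35.9 and 35.1 CPM in shCCN3. This was the tightest of the large differences, with shCCN3 replicate 2 within 3 CPM of the others, at -0.54 ± 0.063 (SE; adjusted p = 0.000198).

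NDUFB2, a small membrane-arm subunit, stood at 53.6, 57.1 and 58.02 CPM in shCTRL and 37.7, 50.7 and 35.96 CPM in shCCN3 and was called lower without overlap (log2 fold change -0.44, SE 0.12, adjusted p = 0.0197). The other accessory subunits called lower were NDUFA3 (-0.45), NDUFA7 (-0.31), NDUFA8 (-0.30), NDUFA6 (-0.27) and NDUFA12 (-0.26). NDUFB2 and NDUFA7 were called in 2 of the 6 fits with a library left out, those without shCTRL replicate 1 or shCCN3 replicate 2. NDUFA7 passed the test although its groups overlapped, and NDUFA12, NDUFA8 and NDUFA6 were called in only 1 of the 6 fits with a library left out. Those not called ran from NDUFB1 at -0.31 to NDUFB9 at 0.11. NDUFB9, the member of complex I with the highest level per length (354 CPM per kilobase in shCTRL), stood at 237, 245 and 273 CPM in shCTRL and 248, 323 and 242 CPM in shCCN3. Its groups overlapped, the difference of 0.11 ± 0.11 (SE; adjusted p = 0.497) did not pass the test, and the sign turned without shCCN3 replicate 2 (-0.033).

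Complex II is also an enzyme of the TCA cycle and has 2 catalytic and 2 membrane subunits. SDHA, the flavin subunit that oxidises succinate, stood at 209.8, 219 and 221 CPM in shCTRL and 183, 191 and 181 CPM in shCCN3. SDHB (Gene ID 6390, chr1:17018722-17054032), the iron-sulfur subunit, stood at 132, 134 and 135 CPM in shCTRL and 96.2, 102 and 86.3 CPM in shCCN3. Neither set of values overlapped, and both were called lower, SDHA at -0.22 ± 0.055 (SE; adjusted p = 0.0122) and SDHB at -0.50 ± 0.07 (SE; adjusted p = 0.000586). SDHB kept its call in every fit, but SDHA lost it with the replicate number as a block (adjusted p = 0.0604) and in 3 of the 6 fits with a library left out, those without shCTRL replicate 2, shCTRL replicate 3 or shCCN3 replicate 1. SDHC and SDHD, which anchor the enzyme in the membrane, were not called and had positive log2 fold changes of 0.17 and 0.074. SDHC missed the threshold (adjusted p = 0.0603) although its 3 shCCN3 values lay above all 3 shCTRL values. SDHB was also the highest of the 4 per length, at 116 CPM per kilobase in shCTRL. SDHAP1 and SDHAP2, near copies of SDHA among which reads can be split, held 7.33% and 6.65% as many counts as SDHA, and neither was called (0.14 and 0.21).

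Complex III held 8 tested members, of which UQCRH was called lower and 7 were not called (12.5%, median -0.066). UQCRH (Gene ID 7388, chr1:46303698-46316776), the acidic hinge subunit beside cytochrome c1, stood at 141, 138 and 156 CPM in shCTRL and 91.98, 120.0 and 89.3 CPM in shCCN3. The groups did not overlap, and UQCRH was lower, with a log2 fold change of -0.53 ± 0.11 (SE; adjusted p = 0.00548). It also had the highest level per length of the complex, 239 CPM per kilobase in shCTRL. UQCRFS1, the Rieske iron-sulfur protein, stood at 139, 146 and 148 CPM in shCTRL and 137, 167 and 132 CPM in shCCN3. Its groups overlapped and its log2 fold change was 0.0082 ± 0.088 (SE; adjusted p = 0.955), with UQCRFS1P1 holding 5.53% as many counts. The core proteins UQCRC1 and UQCRC2 were at 0.025 and -0.069, and UQCRB, UQCR11, UQCRQ and UQCR10 ran from 0.069 to -0.26.

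Complex IV held 11 tested members and was the only complex with a call in each direction: COX4I1 was higher, and COX7A1 and COX7B were lower (27.3%, median -0.11). COX4I1 (Gene ID 1327, chr16:85799695-85807068), the common form of the subunit at which ATP regulates the enzyme, stood at 205, 218 and 239.7 CPM in shCTRL and 300.5, 370.3 and 279.6 CPM in shCCN3. All 3 shCCN3 values lay above all 3 shCTRL values, and COX4I1 was higher, with a log2 fold change of 0.52 ± 0.11 (SE; adjusted p = 0.0046). Its isoform COX4I2, known from lung and from low oxygen, had 0 counts in all 6 libraries, which allows at most 0.0439 to 0.0534 CPM per library (3 counts, counting error only). COX7A1 (Gene ID 1346, chr19:36150922-36152447), the isoform of heart and skeletal muscle, stood at 12.2, 12.03 and 15.0 CPM in shCTRL and 5.8, 10.5 and 7.55 CPM in shCCN3. The groups did not overlap, and COX7A1 had the largest difference of all members at -0.72 ± 0.19 (SE; adjusted p = 0.0177). It was also the least abundant of the tested members per library, and without shCTRL replicate 3 or shCCN3 replicate 3 it was no longer called. COX7A2, the common isoform, stood at 62.9, 64.03 and 67.05 CPM in shCTRL and 50.7, 65.4 and 50.9 CPM in shCCN3, with overlapping groups (log2 fold change -0.22, SE 0.099, adjusted p = 0.13).

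The other isoform sets of complex IV, in which a tissue form can replace the common one, were read through their common form only. COX6A1 stood at 131, 137 and 147 CPM in shCTRL and 119, 151 and 115 CPM in shCCN3 (log2 fold change -0.11, SE 0.10, adjusted p = 0.465), and the muscle form COX6A2 had 0 counts in all libraries. COX6B1 stood at 132, 137 and 155 CPM in shCTRL and 108, 145 and 101 CPM in shCCN3 (log2 fold change -0.26, SE 0.13, adjusted p = 0.156), and the testis form COX6B2 was between 0 and 0.188 CPM. Both common forms had overlapping groups through shCCN3 replicate 2, and neither passed the test. COX7B2 and COX8C had no counts. COX8A, a small structural subunit with the highest level per length of all 77 tested members (486 CPM per kilobase in shCTRL), stood at 228, 244 and 267 CPM in shCTRL and 200.2, 253 and 191 CPM in shCCN3 (log2 fold change -0.20, SE 0.11, adjusted p = 0.191). COX7B was called lower at -0.31, but in only 2 of the 6 fits with a library left out (without shCTRL replicate 1 or shCCN3 replicate 2), and COX5A, COX5B, COX6C and COX7C were not called (-0.09 to 0.11).

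Complex V held 17 tested members, of which ATP5MF, ATP5F1D and ATP5MC1 were called lower and none higher (17.6%, median -0.18). ATP5F1A and ATP5F1B, the alpha and beta subunits of the catalytic head, had the highest levels in CPM of the complex. ATP5F1A stood at 676, 683 and 695 CPM in shCTRL and 588, 674 and 621 CPM in shCCN3. ATP5F1B stood at 646, 648 and 626 CPM in shCTRL and 571, 618 and 579 CPM in shCCN3. In both genes the groups did not overlap, yet the differences of -0.13 ± 0.062 (SE; adjusted p = 0.16) and -0.12 ± 0.056 (SE; adjusted p = 0.137) did not pass the test. ATP5F1D, the delta subunit of the central stalk, was called lower at -0.38, but among the fits with a library left out it passed in only 2, the same as COX7B. ATP5MF (Gene ID 9551, chr7:99458195-99466167), a membrane subunit with the highest level per length of the complex (367 CPM per kilobase in shCTRL), stood at 105, 108 and 123 CPM in shCTRL and 72.3, 86.7 and 67.9 CPM in shCCN3. The groups did not overlap, and ATP5MF was lower, with a log2 fold change of -0.57 ± 0.099 (SE; adjusted p = 0.00205). The row of the readthrough transcript ATP5MF-PTCD1 held 3342 counts beside 36394 of ATP5MF, and its log2 fold change was 0.011.

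ATP5MC1, ATP5MC2 and ATP5MC3 are 3 genes for the same mature c subunit, the ring that turns in the membrane. ATP5MC1 stood at 85.4, 88.6 and 94.9 CPM in shCTRL and 66.1, 85.6 and 64.3 CPM in shCCN3. ATP5MC2 stood at 145, 153 and 164 CPM in shCTRL and 123, 152 and 115 CPM in shCCN3. ATP5MC3 stood at 153, 152 and 159 CPM in shCTRL and 122, 156 and 123 CPM in shCCN3. In all 3 genes shCCN3 replicate 2 reached into the shCTRL range while the other 2 shCCN3 libraries lay below it. ATP5MC1 passed the test at -0.32 ± 0.11 (SE; adjusted p = 0.0471), and ATP5MC2 (log2 fold change -0.25, SE 0.10, adjusted p = 0.0948) and ATP5MC3 (log2 fold change -0.21, SE 0.095, adjusted p = 0.122) did not. ATP5MC1 was called in only 1 of the 6 fits with a library left out, the one without shCCN3 replicate 2, and whether the 3 genes differed from each other was not tested. ATP5PB missed the threshold narrowly (adjusted p = 0.0508), and of the remaining subunits only ATP5PF and ATP5PO had positive log2 fold changes. ATP5MGL, with 10 counts over all libraries, was not tested.

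**Figure D3:**
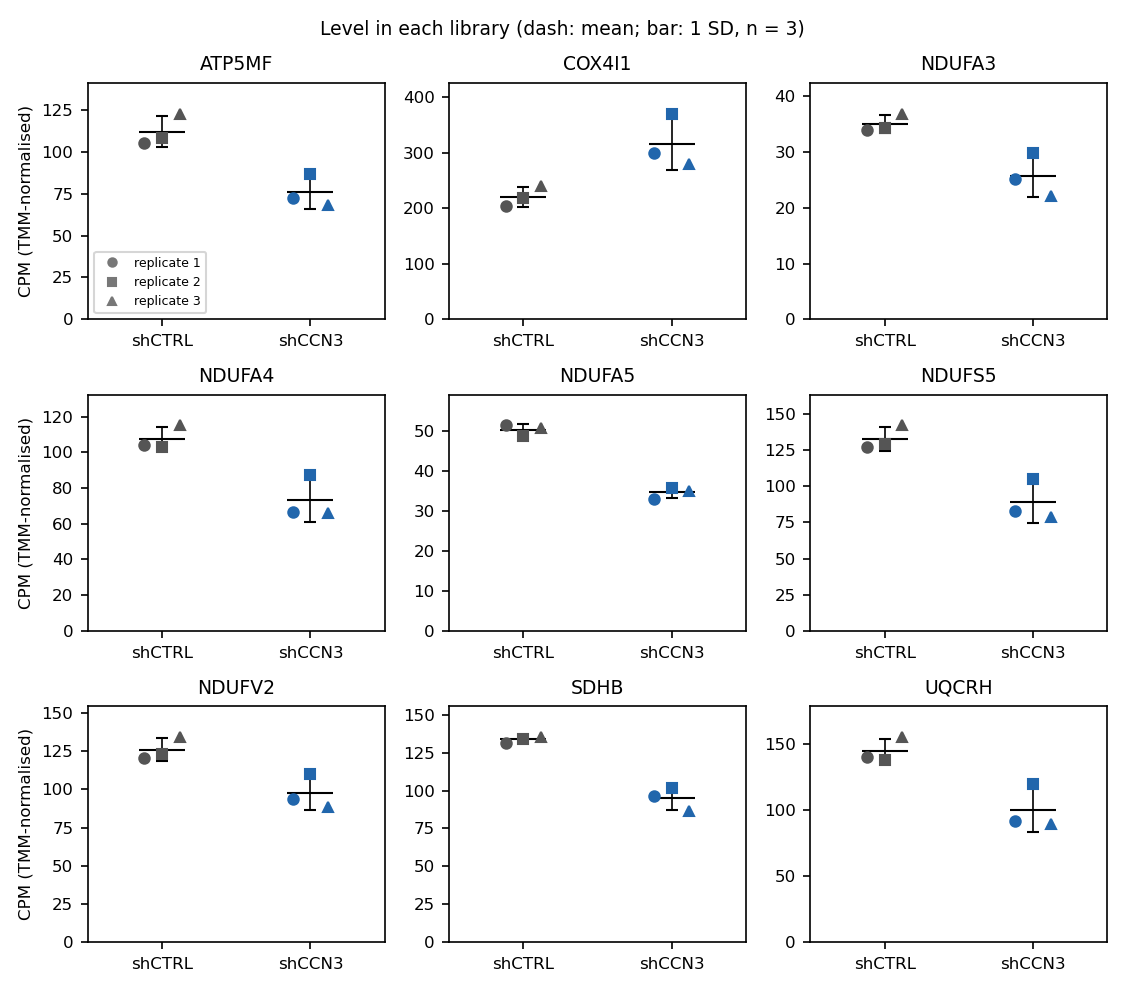
TMM-normalised CPM in each library (vertical axes from 0) for the 9 members called in every fit tried, with symbols for replicates 1 to 3, dashes for means and bars of 1 SD (n = 3). COX4I1 lies higher in all shCCN3 libraries and the others lie lower, with shCCN3 replicate 2 the highest of its group in each.

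Summed over each complex, the levels followed the same libraries. The 83 members together stood at 9464, 9643 and 10362 CPM in shCTRL and at 8482, 10324 and 8287 CPM in shCCN3. The groups overlapped through shCCN3 replicate 2, which lay within the shCTRL range. Complex II was the exception, at 475, 484 and 484 CPM in shCTRL and 415, 439 and 415 CPM in shCCN3, without overlap. The sums of complex IV differed by less than the spread between replicates (1446 ± 105 CPM in shCTRL and 1444 ± 231 CPM in shCCN3, SD, n = 3).

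The members were next set beside their neighbours on the chromosome, because large parts of several chromosomes moved together. The median log2 fold change of the genes tested was -0.43 on chromosome 7, 0.34 on chromosome 6 and 0.23 on chromosome 21, and between -0.13 and 0.11 on the other autosomes and on X. All 4 members on chromosome 7, ATP5MF, NDUFA4, NDUFA5 and NDUFB2, were called lower. Of the 73 tested elsewhere 15 were called (20.5%, beside 33.4% of all genes tested). The shares of all genes called on and off chromosome 7 were not counted, so the members cannot be set beside them. The median of the 24 nearest tested genes was -0.35 at ATP5MF, -0.35 at NDUFA4, -0.35 at NDUFA5 and -0.21 at NDUFB2. Each of the 4 lay below its neighbours' median, with differences of -0.23 to -0.19. On chromosome 1 NDUFS5, UQCRH and SDHB stood in stretches with medians of -0.26, -0.26 and -0.21.

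COX4I1, the single member called higher, lies on chromosome 16, whose genes had a median of 0.0093. Its 24 nearest neighbours had a median of 0.64, above the 0.52 of COX4I1 itself. Of the 19 called members, 8 had a neighbours' median beyond 0.2 in size, all in the direction of the member's own change. Of the 58 members not called 4 had one, and of all genes tested with a chromosome, called or not, 21.9% had one. The share among all called genes was not counted. COX7A1, NDUFV2, NDUFA3, SDHA and ATP5F1D were called lower where the neighbours' medians were -0.033, 0.0089, 0.11, -0.0021 and -0.076. Not every member followed its stretch: NDUFA10 was at 0.065 where its neighbours were at -0.21. The part of these chromosome-wide shifts in the members' differences was not tested.

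On chromosomes 21 and 6 the members were not called. ATP5PF, which joins the stalk of ATP synthase, stood at 94.02, 96.5 and 107 CPM in shCTRL and 99.9, 119 and 94.5 CPM in shCCN3 (log2 fold change 0.075, SE 0.093, adjusted p = 0.581). ATP5PO, the stalk subunit that confers oligomycin sensitivity, stood at 133, 142 and 148 CPM in shCTRL and 143, 179.5 and 135 CPM in shCCN3 (log2 fold change 0.11, SE 0.10, adjusted p = 0.443). NDUFV3, an accessory subunit of the NADH-oxidising arm, stood at 33.6, 36.4 and 38.2 CPM in shCTRL and 34.4, 40.2 and 37.5 CPM in shCCN3 (log2 fold change 0.052, SE 0.08, adjusted p = 0.665). The 3 chromosome 21 members had overlapping groups, and their neighbours' medians were 0.15, 0.16 and 0.35. COX7A2, the only member on chromosome 6, was at -0.22 where its neighbours were at 0.099.

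**Figure D4:**
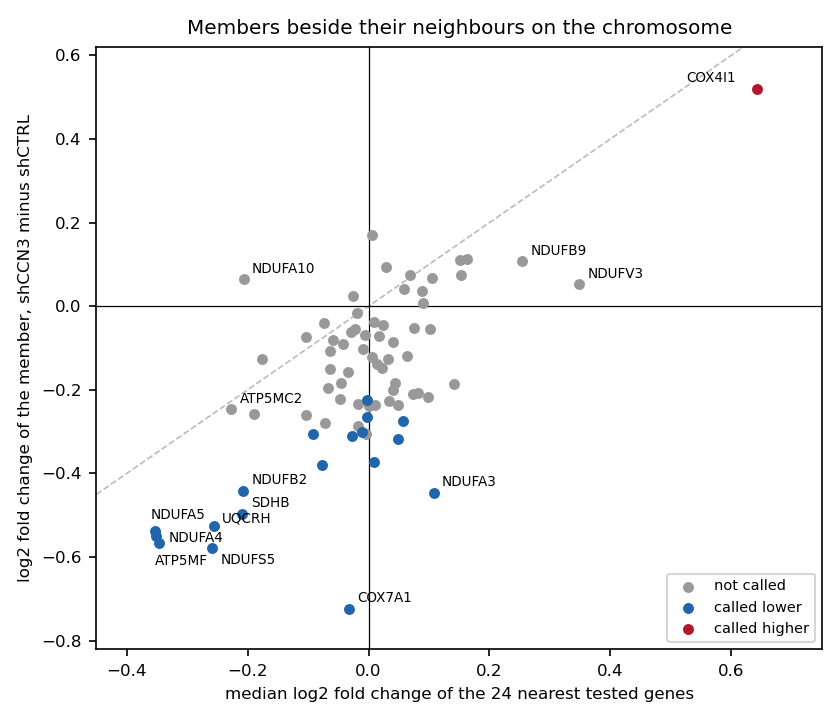
Log2 fold change of each tested member (vertical axis) against the median log2 fold change of its 24 nearest tested genes (horizontal axis), with a dashed line of equality. COX4I1 lies at the upper right with neighbours at 0.64, the chromosome 7 members and the chromosome 1 members NDUFS5, UQCRH and SDHB lie at the lower left, and COX7A1 and NDUFA3 were called lower where the neighbours were not.

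Many of these genes start back to back with another gene on the opposite strand, so the start regions of those called in every fit were read from RefSeq (GRCh38.p14). Its table held 64 of the 77 tested members. NDUFS5 and ATP5MF, though called in every fit, had no entry and were not read. In 2 of the members called in every fit the partner gene was called as well, and the bases between both starts are shown. COX4I1 starts 151 bases from EMC8, a subunit of a membrane-protein insertase, which was higher, with a log2 fold change of 0.65 ± 0.072 (SE; adjusted p = 0.000139). UQCRH starts 82 bases from LRRC41, which was lower, with a log2 fold change of -0.24 ± 0.053 (SE; adjusted p = 0.00742). Both sequences are written towards the member, which starts at the next base (chr16:85799545-85799694, plus strand, and chr1:46303617-46303697, plus strand). Capitals mark the letters CCGGAAG on either strand, a form of the site bound by ETS factors such as GABPA.
COX4I1: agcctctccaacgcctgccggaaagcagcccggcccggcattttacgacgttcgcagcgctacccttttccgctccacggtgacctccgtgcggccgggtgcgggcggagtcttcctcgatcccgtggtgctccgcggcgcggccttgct
UQCRH: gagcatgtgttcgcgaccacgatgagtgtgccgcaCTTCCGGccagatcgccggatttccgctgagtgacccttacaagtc

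The COX4I1 stretch held no CCGGAAG, and the UQCRH stretch held 1 on the opposite strand. Shorter or other forms of the ETS site were not searched. Of the 19 members with a tested partner starting within 1000 bases, COX4I1 and UQCRH were the only ones in which both genes were called. SDHA, NDUFA6 and NDUFA7 were called with partners that were not: CCDC127 was at 0.021, NDUFA6-DT at 0.11 and RPS28 at -0.12.

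NRF1 and the ETS factor GABPA are known activators of nuclear genes for the respiratory chain, and their motifs were counted in the 250 bases before each start. The letters GCGCANGC, a form of the NRF1 site, were found on either strand in 26 of 64 members (40.6%), in 18.1% of the promoters of genes tested and in 10.9% of all 27305 promoters. The ETS letters CCGGAAG were found in 26.6% of members, 15.0% of genes tested and 8.82% of all. The GC box GGGCGG, bound by Sp1, was found in 57.8% of members, 63.8% of genes tested and 42.3% of all, and the YY1 core AAGATGGC in 1 member. The NRF1 letters were present in 7 of 15 called members and in 19 of 49 that were not called.

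The 3 sequences below are the 200 bases before the start of the members called in every fit that hold an NRF1 or ETS match and share no start region with another called gene. They are shown because such matches are frequent in the group. NDUFS5 and ATP5MF, which had no entry, were not searched. Capitals mark GCGCANGC and CCGGAAG on either strand, and overlapping matches run together. The regions are chr19:54102655-54102854, plus strand for NDUFA3, chr18:9102499-9102698, plus strand for NDUFV2 and chr1:17054033-17054232, minus strand for SDHB.
NDUFA3: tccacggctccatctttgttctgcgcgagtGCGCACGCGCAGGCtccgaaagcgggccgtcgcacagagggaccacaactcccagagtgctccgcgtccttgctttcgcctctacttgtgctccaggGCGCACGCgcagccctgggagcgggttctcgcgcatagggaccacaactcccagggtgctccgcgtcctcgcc
NDUFV2: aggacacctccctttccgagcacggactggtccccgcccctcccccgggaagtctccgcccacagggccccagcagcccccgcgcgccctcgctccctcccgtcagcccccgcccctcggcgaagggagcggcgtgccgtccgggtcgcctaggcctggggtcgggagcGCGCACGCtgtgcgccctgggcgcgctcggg
SDHB: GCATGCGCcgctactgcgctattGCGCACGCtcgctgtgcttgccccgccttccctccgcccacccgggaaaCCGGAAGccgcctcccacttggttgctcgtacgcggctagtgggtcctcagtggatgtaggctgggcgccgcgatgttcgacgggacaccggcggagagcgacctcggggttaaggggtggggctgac

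NDUFA3 held 3 NRF1 matches in this window, of which 2 overlap, at 170, 164 and 73 bases before the start. NDUFV2 held 1 at 31 bases, and SDHB held NRF1 matches at 200 and 177 bases and an ETS match at 128 bases. The mRNA of NRF1 itself was at -0.054 and was not called, and GABPA, at 16.8, 14.4 and 13.3 CPM in shCTRL and 23.5, 21.5 and 30.01 CPM in shCCN3, was called higher at 0.75 ± 0.13 (SE; adjusted p = 0.00228).

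The subunits encoded by mitochondrial DNA are the partners of the proteins above. Of the 13, 7 were called lower and none higher (53.8%, beside 33.4% of all genes tested), with a median of -0.19. ATP6, the ATP synthase subunit that forms the proton path, stood at 6758, 7089 and 7377 CPM in shCTRL and 5676, 5497 and 5102 CPM in shCCN3. CYTB, the cytochrome b of complex III, stood at 3133, 3149 and 3164 CPM in shCTRL and 2569, 2441 and 2295 CPM in shCCN3. Neither set overlapped, and both were called lower, ATP6 at -0.38 ± 0.058 (SE; adjusted p = 0.000854) and CYTB at -0.37 ± 0.055 (SE; adjusted p = 0.000787). With COX1 (-0.33) and COX3 (-0.36), named after their values were seen, these were the 4 called in every fit tried. All of them were under 1.5-fold with all 6 samples, while ND2, ND4 and COX2 lost their call in most fits. The sum of the 13 was 50857, 52396 and 52409 CPM in shCTRL and 46431, 43054 and 41297 CPM in shCCN3, without overlap. Unlike the nuclear sum, this sum was not highest of its group in shCCN3 replicate 2.

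Subunits and paralogues that the symbol rule leaves out were mixed, with 2 of 7 called (28.6%, beside 33.4% of all genes tested). ATP5IF1, the inhibitor of ATP synthase, stood at 163, 168 and 173 CPM in shCTRL and 111, 117 and 102 CPM in shCCN3 and was lower without overlap (log2 fold change -0.61, SE 0.066, adjusted p = 0.000129), where its neighbours on the chromosome were at -0.075. CYCS, cytochrome c, stood at 196, 186 and 199 CPM in shCTRL and 147, 168 and 168 CPM in shCCN3 and was lower (log2 fold change -0.27, SE 0.068, adjusted p = 0.0147), on chromosome 7 with neighbours at -0.41; CYCS lost its call without shCTRL replicate 1, shCTRL replicate 3 or shCCN3 replicate 1. The other 5 were not called. CYC1, the cytochrome c1 of complex III, was at 0.0099, NDUFAB1 at -0.19, COX7A2L at -0.058, NDUFA4L2 at -0.19 and DMAC2L at 0.18.

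Assembly factors build the complexes without staying in them. The shares called were 13.3% for complex I, 20% for complexes II and III, 27.3% for complex IV and 20% for complex V. Each was below the 33.4% of all genes tested. For complex I, 2 of 15 were called lower: NDUFAF5, which hydroxylates a core subunit, stood at 16.95, 17.3 and 18.01 CPM in shCTRL and 12.2, 10.7 and 13.2 CPM in shCCN3 (log2 fold change -0.54, SE 0.092, adjusted p = 0.00183), and FOXRED1 was at -0.23. For complexes II and III, 2 of 10 were called lower: SDHAF3, an assembly factor of SDHB, stood at 8.89, 7.35 and 8.16 CPM in shCTRL and 3.65, 5.18 and 5.33 CPM in shCCN3 (log2 fold change -0.79, SE 0.15, adjusted p = 0.00363), and UQCC1, which helps to make cytochrome b, was at -0.40. SDHAF3 lies on chromosome 7 and NDUFAF5 on chromosome 20, and their neighbours' medians were -0.38 and -0.31. For complex IV, 5 of 22 were lower and 1 higher. The higher was CMC2, at 33.3, 33.4 and 34.6 CPM in shCTRL and 48.8, 59.3 and 48.2 CPM in shCCN3 (log2 fold change 0.63, SE 0.087, adjusted p = 0.000554), which like COX4I1 lies on chromosome 16 with neighbours at 0.64, and the largest lower was PET117 (-0.59). For complex V, ATPAF1, the chaperone of the beta subunit, was called lower at -0.36 ± 0.057 (SE; adjusted p = 0.00111), and ATPAF2, TMEM70, TMEM242 and FMC1 were not called (-0.27, 0.14, 0.26 and -0.39).

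The pathways that feed the chain moved in both directions. In the TCA cycle 6 of 14 genes were lower and 2 higher (57.1%, beside 33.4% of all genes tested). SUCLG1, a subunit of succinyl-CoA ligase, stood at 55.4, 57.7 and 63.9 CPM in shCTRL and 94.3, 107 and 90.6 CPM in shCCN3 and was higher (log2 fold change 0.72, SE 0.083, adjusted p = 0.000172), with neighbours at 0.45. DLD, the dihydrolipoamide dehydrogenase, stood at 93.4, 87.9 and 86.9 CPM in shCTRL and 55.7, 55.1 and 52.95 CPM in shCCN3 and was lower (log2 fold change -0.71, SE 0.059, adjusted p = 2.45e-05), on chromosome 7 with neighbours at -0.35. Neither gene's groups overlapped. In coenzyme Q synthesis 4 of 13 were lower and 1 higher (38.5%), led by COQ8B (-0.48) and PDSS2 (-0.45). Among the carriers and channels VDAC3, an outer-membrane channel, was lower (log2 fold change -0.54, SE 0.066, adjusted p = 0.00025) and 6 others were not called (14.3% called).

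Among the regulators of mitochondrial biogenesis and the mtDNA machinery 5 of 17 were higher and 2 lower (41.2%, beside 33.4% of all genes tested), led by GABPA and by PPARGC1B, a coactivator, at -0.55. PPARGC1A, the better known coactivator of this programme, was not tested, at no more than 0.097 CPM in the mean of either group. The mitochondrial ribosomal proteins, which translate the mtDNA-encoded subunits and are also short nuclear genes, had 11 of 78 lower and 10 higher (26.9%), with a median of -0.045. MRPL37 (-0.61) and MRPL20 (-0.53) had the largest changes. Without shCCN3 replicate 2, 26 were lower and 9 higher, where the oxidative phosphorylation members had 54 lower and 1 higher of 77.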

How the data were processed

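Libraries were made from total RNA with the TruSeq Stranded mRNA LT kit. The submitters' processing notes name GRCh38, bcl2fastq 2.20.0, Trimmomatic, HISAT2 2.1.0, StringTie and DESeq2. The annotation and the strand setting of the counting are not given in the sources used here. The authors deposited raw read counts per gene, listed by NCBI Gene ID and symbol, and these counts were used as deposited.

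Genes were filtered by filterByExpr and compared with edgeR 4.0.16 (TMM, quasi-likelihood test, Benjamini-Hochberg adjustment, R 4.3.3). The scripts were tested on simulated data. Log2 fold changes are shCCN3 minus shCTRL, and "called" means an adjusted p under 0.05. Transcript length is that of the longest principal transcript of GENCODE 29, and levels per length depend on that choice. Chromosomes came from RefSeq (GRCh38.p14), which matched 44698 of 46427 gene IDs. A gene's neighbours are the 24 nearest tested genes on its chromosome. Alternatives were DESeq2 1.42.0 and its size factors, upper-quartile factors, the edgeR exact test, limma-voom (limma 3.58.1), other count filters, a replicate block, each library left out and, added later, an offset for transcript length. No 2 libraries of a group agreed within counting error. The series design describes the samples of a group as independent. Values in every sample are given for the 5 largest changes in each direction, catalytic subunits, isoform sets, members on chromosomes whose median exceeds 0.2 in size and the highest level per length in each complex. For each related list the 2 largest called changes are named, or every gene of lists with 7 or fewer. The members and lists were chosen with earlier results of these data known. The values of 1 tested member are not reported here; it stays in the counts.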

Additional observations from a re-analysis of the deposited data

How the results depend on the processing

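Called members kept their direction under every alternative. The count of members called lower was 18 and ranged from 8 to 54 with a library left out, and it was 1 at 1.5-fold or more and 29 with the transcript length offset. Calls over all genes were 5825 and ranged from 4181 to 7229 with a library left out. The count called higher was 1, and it was 2 with DESeq2's Wald test, 0 at 1.5-fold or more and 7 with the length offset. The members' median of -0.16 ranged from -0.28 to -0.099 with a library left out. The highest counts came without shCCN3 replicate 2, and the cause was not tested.

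With a library left out, the counts called ranged from 5 to 26 in complex I, 1 to 2 in complex II, 1 to 4 in complex III, 1 to 9 in complex IV and 1 to 14 in complex V. They ranged from 4 to 7 for the mitochondrially encoded subunits, 1 to 3 for the subunits outside the symbol rule, 1 to 5 for assembly factors of complex I, 4 to 12 of complex IV and 1 to 3 of complex V, 3 to 5 for coenzyme Q synthesis, 1 to 2 for carriers, 4 to 10 for biogenesis regulators and 14 to 35 for mitochondrial ribosomal proteins. With the length offset, 19 were called in complex I, 2 in complex III, 6 in complex IV, 7 in complex V, 2 among assembly factors of complex V and 4 among carriers. The edgeR exact test called 2 in complex III. The mitochondrially encoded subunits called were 4, not 7, under DESeq2 size factors, upper-quartile factors, both other filters, limma-voom and the replicate block.

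Same-numbered samples did not deviate together (correlations 0.089, -0.026 and -0.066), and the labels give them only a number in common. These correlations cannot tell whether they were prepared together. With the replicate block 15 members were called lower and 1 higher, 1 in complex II, 1 assembly factor of complex I and 3 genes of coenzyme Q synthesis.

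FOXRED1 was called in 2 and PPARGC1B in 3 of the 6 fits with a library left out. Of the 58 members not called, 19 changed sign with a library left out and 5 with the length offset, 20 in all. Those described in every sample were NDUFS8 (0.049 with the length offset, -0.23 to 0.086 with a library left out), ATP5PF (-0.025 to 0.14), ATP5PO (-0.018 to 0.19), NDUFB9 (-0.033 to 0.18), NDUFS7 (-0.21 to 0.0010), NDUFV3 (-1.0e-05 to 0.11) and UQCRFS1 (-0.098 to 0.073). With 3 libraries a group, depth does not limit the tested members, whose lowest count in a library was 400, for COX7A1.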
